A study of Rattus norvegicus with 10 samples.

Results

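Cytosolic ribosomal protein genes were examined in the rat trigeminal ganglion (TG), the ganglion that holds the sensory neurons of the face and mouth. Members were taken by gene symbol: Rpl or Rps with a number and at most 1 further letter and number, the stalk genes *Rplp0*, *Rplp1* and *Rplp2*, and *Rpsa*, without the ribosomal S6 kinases and without pseudogenes. This gave 82 genes with 143 probes, of 15507 genes with a symbol and 30367 probes on the array. Of these genes, 81 were tested because their signal was well above background on each of the 5 arrays of 1 group or of both, 79 of them on all 10 arrays. They comprise 33 genes of the small (40S) subunit, 45 of the large (60S) subunit and 3 of the stalk, which belongs to the large subunit. *Rpl27l2* was well above background on none of the 10 arrays and was not tested. Some symbols, those of *Rps9*, *Rpl26* and *Rpl37* among them, were not matched to a probe, and these genes were not analysed here.

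TG RNA of 5 rats with oral ulcerative mucositis (OUM, labelled Stomatitis) and 5 Control rats was measured, with 1 single-colour Agilent array per rat. All were male Wistar rats, 8 weeks old when the ulcer was made. Stomatitis rats were anesthetized and had filter paper soaked in 50% acetic acid laid on the mucosa in front of the lower incisors for 30 s, and Control rats, called naive in the study, were anesthetized only. On day 2 whole ganglia of both sides were taken after perfusion with saline, so neurons of all 3 nerve branches, glia, vessels and sheath were pooled, although the ulcer lay in the territory of 1 branch.

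Ribosomal proteins and ribosomal RNA build the ribosome. The small subunit reads the mRNA, the large subunit joins amino acids, and the stalk recruits the translation factors. Most of the proteins are needed in equal copies, and most of these mRNAs begin with a cytosine followed by a run of pyrimidines, the 5′ terminal oligopyrimidine (TOP) tract. Through the TOP tract the kinase mTOR and the RNA-binding protein LARP1 set how much of these mRNAs is translated. An array measures the amount of mRNA and does not measure translation.

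The TOP tract is shown for members on which the later sections turn, next to paralogs that lack it at the same place. The 30 bases around each annotated transcription start (10 before it and 20 from it on) come from RefSeq on GRCr8, and capitals mark the tract where it begins at the annotated start. *Rplp0* (chr12:46718371-46718400, minus strand), *Rpl10* (chrX:157205840-157205869, plus strand) and *Rpl19* (chr10:83519054-83519083, plus strand) are core members with a tract. *Rps27* (chr2:177964587-177964616, minus strand), *Rpl22* (chr5:168117951-168117980, plus strand) and *Rpl39* (chrX:121195877-121195906, minus strand) are set against *Rps27l* (chr8:76443648-76443677, plus strand), *Rpl22l1* (chr2:113683186-113683215, plus strand) and *Rpl39l1* (chr10:5966602-5966631, minus strand).
Rplp0: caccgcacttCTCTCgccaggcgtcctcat
Rpl10: gtgggagcgtCTCTTTTCCTCTggcgcggt
Rpl19: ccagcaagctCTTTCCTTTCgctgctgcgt
Rps27: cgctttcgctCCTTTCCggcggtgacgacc
Rps27l: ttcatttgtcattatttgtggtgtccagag
Rpl22: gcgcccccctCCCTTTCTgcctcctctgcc
Rpl22l1: gtggatatccggttccgagttgcgcagcgc
Rpl39: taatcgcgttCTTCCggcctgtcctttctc
Rpl39l1: caggccgtcccgctatcctggtgtgtggtc
The tract is 5 bases long in *Rplp0* and *Rpl39* and 12 bases long in *Rpl10*. A C followed by at least 4 bases that are C or T, on the gene's own strand, stood at the annotated start of 23 of the 66 members with a window in the table (34.85%), against 722 of 27457 genes in all (2.63%). Within 1 base of the start the shares were 50% of members and 5.831% of all genes, and within 5 bases 59.09% and 16.96%. The other 16 members had no window in the table, *Rpl30* among them. An annotated start can lie some bases from the start used in the ganglion, so a window without the tract says only that these letters are not there.

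The arrays lay on 2 slides. Slide 1 held Stomatitis arrays 1, 2 and 3 and Control arrays 1, 2, 3 and 5, and slide 2 held Stomatitis arrays 4 and 5 and Control array 4. Signals are given as log2 of the processed intensity relative to the 75th percentile of the array, a percentile that ranged from 2620.3 to 2948.9 intensity units, and differences are Stomatitis minus Control on this scale. Between 70.8% and 77.2% of the probes of an array were well above background. The mean of 11 neuronal marker genes lay between 4.57 and 4.87 on Stomatitis arrays and between 4.70 and 4.80 on Control arrays. The mean of the pituitary marker genes, mainly hormones, of which 6 of the 8 listed passed the filter on dim signal, ranged from -3.60 to -0.056 on Stomatitis arrays and from -5.32 to -0.46 on Control arrays, and was above -0.5 on Stomatitis arrays 1 and 2 and Control array 1.

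No ribosomal protein gene passed the test between Stomatitis and Control TG. At a limma adjusted p under 0.05 over 19265 features, 0 of 81 members were called, where 2 features in all were called (0.0104%), 1 of them higher (0.00519%) and 1 lower (0.00519%). Without adjustment, 0 members had a p under 0.05, against 1706 features (8.86%). The lowest limma adjusted p of a member was 0.628, that of *Rps3a*. The methods' t-test also called 0 members after Benjamini-Hochberg adjustment. On the brightest probe of each gene, in no member did the Stomatitis arrays lie wholly above or wholly below the Control arrays. Such a separation was seen in 0.799% of features upward and 1.00% downward. A dimmer probe of *Rps14*, given below with its values, had its Stomatitis arrays wholly below the Control arrays. The study's first fold limits, over 1.5 or under 0.67 with an unadjusted p under 0.05, were met by 0 members, against 0.275% of features upward and 0.332% downward. Precision is limited by the 5 arrays of each group, and in whole tissue fewer cells of a type and less RNA per cell cannot be told apart.

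The changes that these arrays leave room for were small for most members. The 95% interval of the log2 fold change lay within 0.2 of 0, that is within 1.149-fold in either direction, in 65 of 81 members (80.2%), against 34.1% of all features. In 77 members the estimate itself was within 0.13 of 0, against 76.8% of features. The estimate was smaller than the member's own SD between arrays of a group in 62 of 81 members, a share of the same order as the 77% of all features. An interval that reached beyond 0.5 on 1 side was found in 5 members, *Rps27l*, *Rps12l4*, *Rpl39l1*, *Rpl3l* and *Rpl13*, and in 14.5% of features, so a change of that size cannot be told from none in these 5 genes.

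**Figure D1:**
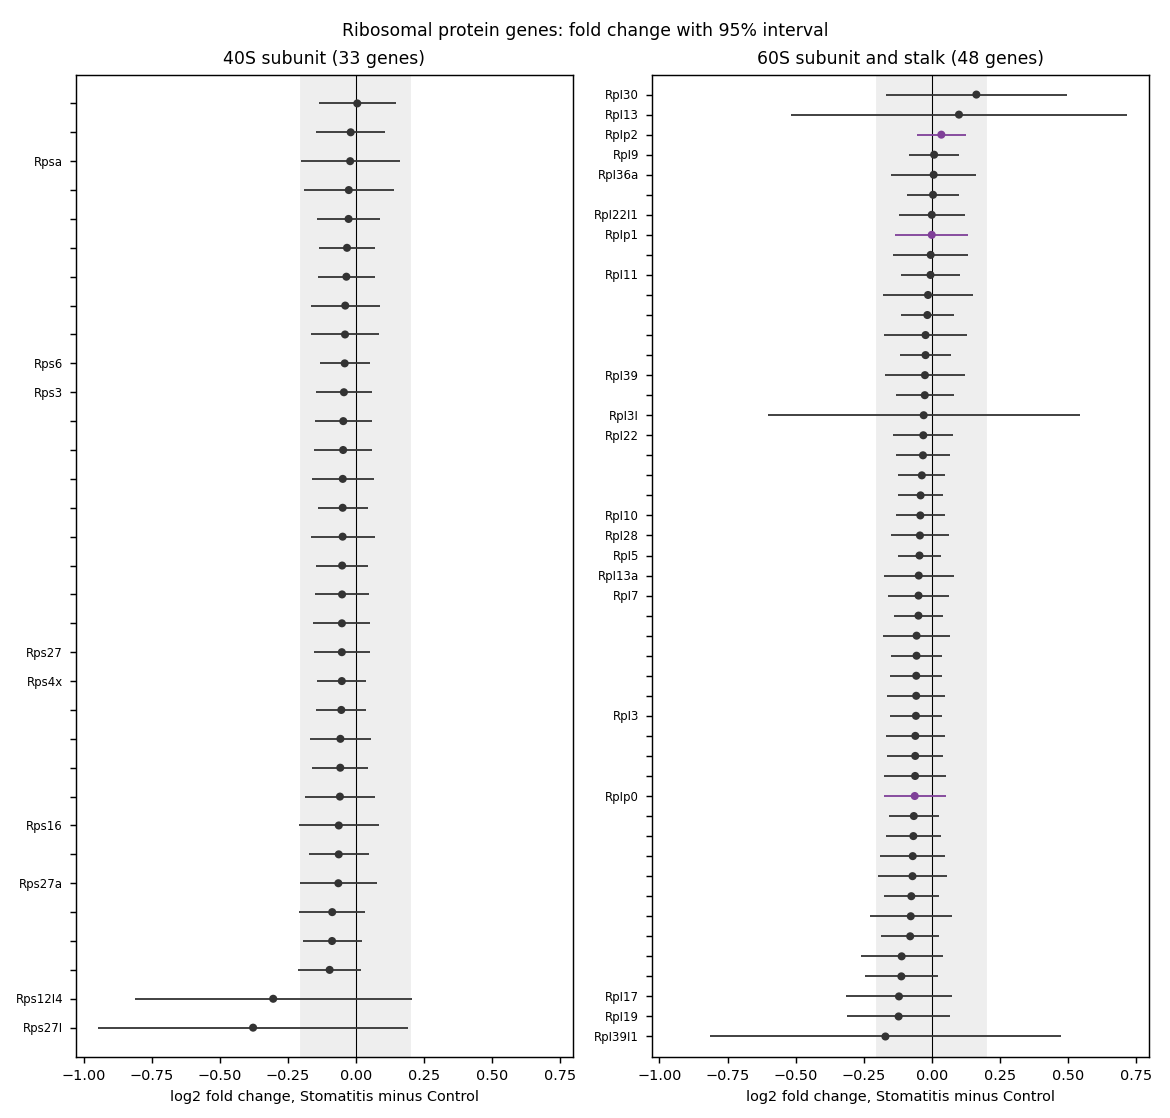
Log2 fold change, Stomatitis minus Control (horizontal axis), of the 33 tested 40S genes (left) and the 48 tested genes of the 60S subunit and stalk (right, stalk in purple), with the 95% interval from limma over 5 arrays per group. Symbols are printed for 30 of the members, and the grey band spans 0.2 on either side of 0. Every interval crosses 0, and 65 of the 81 lie within the band.

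Although no single gene was called, the estimates shared a sign. The log2 fold change was below 0 in 74 of 81 members (91.4%), against 54.3% of all features, and above 0 in 7 members, against 45.7%, with a median of -0.049 (a fold of 0.967) against -0.010 over all features. The 40S genes had a median of -0.050 with 32 of 33 below 0, and the middle 50% of them lay between -0.059 and -0.040. The 60S genes had a median of -0.048 with 40 of 45 below 0, and the middle 50% lay between -0.066 and -0.023. This one-sidedness moved with the scaling, and so did the share of all features below 0. After quantile normalization 64.2% of members were below 0 with a median of -0.010, against 48.8% and 0.0026 over all features. After background correction by normexp with quantile normalization the values were 64.2% and -0.0065, against 48.8% and 0.0023. After centring each array on its median they were 82.7% and -0.029, against 46.2% and 0.0091. The members' median less that of all features was -0.038 as reported and after centring, -0.013 after quantile normalization and -0.0088 after normexp. The one-sidedness also moved with how bright a feature was. The 1854 other features in the brightest 10% of features, where 73 of the 81 members lie, had a median of -0.039 with 74.2% below 0, and the dimmest 10% had a median of 0.051 with 38.1% below 0. The part of signal brightness in the members' shared sign was not tested.

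The slides differed as well. Within slide 1 the members' median was -0.065 with 76 of 81 below 0, and within slide 2, which has 1 Control array, it was 0.0053 with 35 of 81 below 0. All features had a median of -0.037 within slide 1, with 62.6% below 0 against 93.8% of members. Within slide 2 their median was 0.019, with 44.6% below 0 against 43.2% of members. With the slide as a block the members' median was -0.045, with 73 below 0 (90.1%). The median over all features was then -0.020, with 58.2% below 0.

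**Figure D2:**
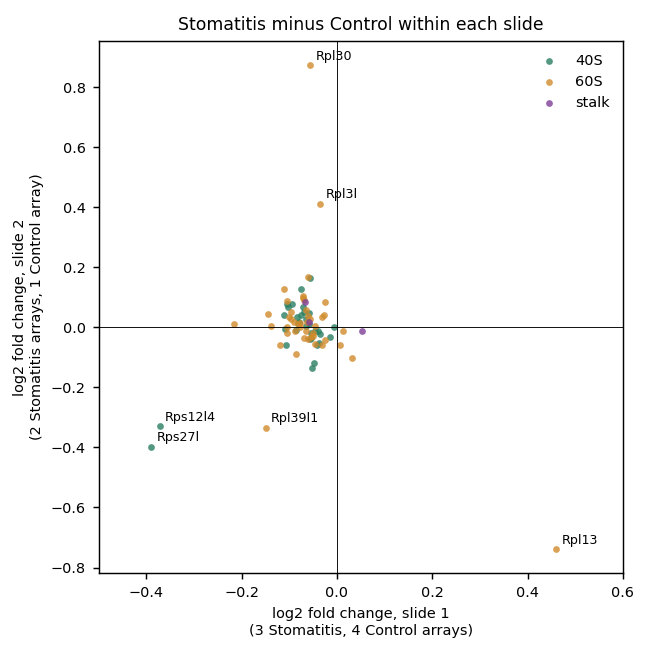
Log2 fold change of each of the 81 members within slide 1 (horizontal axis, 3 Stomatitis and 4 Control arrays) and within slide 2 (vertical axis, 2 Stomatitis arrays and 1 Control array). Most members lie left of 0 within slide 1 (76 of 81) and on both sides of 0 within slide 2 (35 below); *Rpl30*, *Rpl13*, *Rps27l*, *Rpl3l*, *Rps12l4* and *Rpl39l1* lie apart from the cloud.

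Single arrays carried much of what the members had in common. The median deviation of the 81 members from their own 10-array means was -0.067, -0.0031, -0.0028, -0.054 and 0.021 on Stomatitis arrays 1 to 5, and 0.099, -0.017, -0.0012, -0.026 and 0.069 on Control arrays 1 to 5. The 2 groups overlapped, with Control arrays 1 and 5 highest and Stomatitis arrays 1 and 4 lowest. On Stomatitis array 1 only 6 of 81 members were above their own mean, whereas on Control array 1 it was 77 of 81. Control array 1 held the highest of the 10 values in 45 members, against 10.9% of all features. The other brightest features deviated by a median of 0.0059 on Stomatitis array 1 and 0.030 on Control array 1. Both of these arrays were among the 3 richest in pituitary marker genes, and Control array 1 also had the highest mean of the 3 tested of 4 listed neutrophil markers (0.83, against -3.46 to -0.064 on Stomatitis arrays and -3.22 to -0.51 on the other Control arrays). Without the 3 arrays richest in pituitary genes the members' median was -0.018, with 29 of 81 above 0, against a median of -0.0028 over all features. Without Control array 1 it was -0.032 with 14 above 0, and without Stomatitis array 1 -0.038 with 14 above 0. Of the other marker sets, Stomatitis array 1 had the highest neuronal mean of the 10 arrays (4.87). It also had the lowest means of satellite glia (-0.77) and of meninges and fibroblasts (3.34). Control array 1 had the highest mean of the 2 tested of 5 listed lymphocyte markers (-4.72). The part of pituitary or neutrophil RNA, or of RNA of these cell types, in the members' values was not tested.

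**Figure D3:**
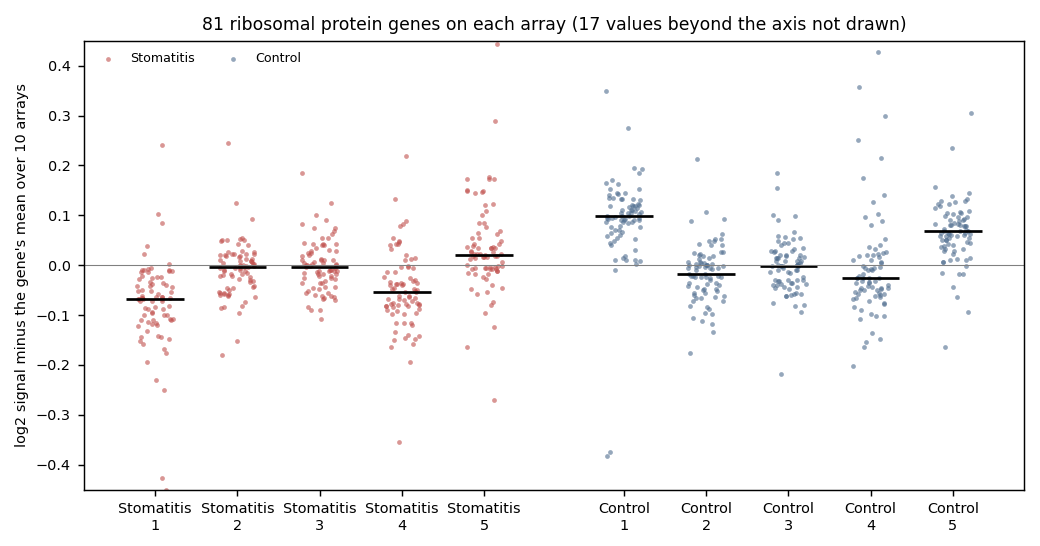
Deviation of each member's log2 signal from its own mean over the 10 arrays (vertical axis), by array, Stomatitis on the left and Control on the right, with the median of the 81 members as a black bar. Points lie mostly below 0 on Stomatitis arrays 1 and 4 and above 0 on Control arrays 1 and 5, and 17 of 810 values beyond the axis are not drawn.

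Once the group means were removed, the members still varied together across the 10 arrays. The mean correlation between pairs of members was 0.41, between 40S members and members of the large subunit 0.41, between pairs of all features 0.017, and between pairs of the other brightest features 0.080. These are descriptions over 10 arrays that share slides and array-wide scaling. In 41 members the correlation with the mean of the other members was 0.7 or more. In 9 members it was under 0.2, namely *Rpl22l1* (-0.49), *Rps12l4* (-0.41), *Rpl7a* (0.074), *Rpl39l1* (0.080), *Rpl13* (0.11), *Rpl15* (0.12), *Rps4y2* (0.14), *Rpl17* (0.15) and *Rps7* (0.17). The spread between arrays of a group was narrow, with a median SD of 0.068 over members against 0.13 over all features and 0.078 over the other brightest features. It was under 0.1 in 64 members (36.4% of all features) and over 0.2 in 6 (26.2% of all features), which were *Rps27l*, *Rps12l4*, *Rpl39l1*, *Rpl3l*, *Rpl13* and *Rpl30*.

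The 3 stalk proteins bind the translation factors that drive each step of the ribosome. *Rplp0*, which anchors the stalk, had log2 signals of 6.73, 6.74, 6.79, 6.65 and 6.67 on Stomatitis arrays, against 6.87, 6.79, 6.76, 6.65 and 6.84 on Control arrays. The groups overlapped, and the estimate for *Rplp0* was a log2 fold change of -0.063 (SE 0.051, limma adjusted p = 0.747). *Rplp1* averaged 5.57 ± 0.11 on Stomatitis arrays and 5.57 ± 0.064 on Control arrays (SD, n = 5 each). *Rplp2* had 6.06, 6.08, 6.11, 6.07 and 6.05 on Stomatitis arrays, against 6.06, 5.99, 5.96, 6.07 and 6.11 on Control arrays. Stomatitis arrays were the more even of the 2 groups for *Rplp2*, and its log2 fold change of 0.035 (95% interval -0.054 to 0.12) was 1 of the 7 above 0.

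Among the small subunit proteins, *Rps6* is the substrate of the S6 kinases downstream of mTOR. Its log2 signals were 4.41, 4.45, 4.43, 4.45 and 4.53 on Stomatitis arrays, against 4.58, 4.47, 4.46, 4.45 and 4.51 on Control arrays. All but 1 of the Stomatitis values lay below the Control mean of 4.49, the groups overlapped, and the log2 fold change was -0.041 (95% interval -0.13 to 0.052). *Rps3*, which lies where mRNA enters the subunit, averaged 5.42 ± 0.045 on Stomatitis arrays and 5.46 ± 0.071 on Control arrays (SD, n = 5 each). *Rps4x*, which lies on the X chromosome, averaged 3.14 ± 0.051 on Stomatitis arrays and 3.19 ± 0.039 on Control arrays (SD, n = 5 each). *Rps27a*, made as a fusion with ubiquitin, averaged 5.09 ± 0.11 on Stomatitis arrays and 5.15 ± 0.081 on Control arrays (SD, n = 5 each). The difference between groups was smaller than the SD of the arrays within groups for *Rps3* (limma adjusted p = 0.807) and *Rps27a* (limma adjusted p = 0.793). For *Rps4x* it was -0.052, slightly more than that SD of 0.046, and the groups overlapped (limma adjusted p = 0.732).

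*Rpsa*, also known as a precursor of the laminin receptor, varied more. It had 3.39, 3.65, 3.60, 3.70 and 3.82 on Stomatitis arrays, against 3.69, 3.47, 3.68, 3.74 and 3.68 on Control arrays. Stomatitis array 1 and Control array 2 were the low ones, and the log2 fold change was -0.021 (95% interval -0.20 to 0.16). *Rps3a*, the member with the lowest p, had 5.23, 5.30, 5.28, 5.16 and 5.30 on Stomatitis arrays, against 5.45, 5.33, 5.32, 5.24 and 5.41 on Control arrays. Every Stomatitis value of *Rps3a* lay below the Control mean of 5.35, yet Control array 4 was among the Stomatitis values, and the log2 fold change of -0.096 (SE 0.051) gave a limma adjusted p of 0.628 (exact permutation test, two-sided, p = 0.0794, unadjusted for the 81 members).

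Of the large subunit proteins, *Rpl5* and *Rpl11* carry the 5S ribosomal RNA and, when free, bind the p53 regulator Mdm2. *Rpl5* was the steadiest of the named genes, with 3.74, 3.77, 3.72, 3.67 and 3.73 on Stomatitis arrays, against 3.76, 3.75, 3.78, 3.76 and 3.81 on Control arrays. Its groups overlapped by a single Stomatitis array, array 2. The estimate was -0.045 (SE 0.036, limma adjusted p = 0.735), and the exact permutation test gave p = 0.0317 (two-sided, unadjusted, where 0.00794 is the smallest p that 5 arrays against 5 allow). By that test, on the brightest probe of each gene, 1 of 81 members (1.23%) had a p under 0.05, against 8.68% of all features. Dimmer probes of other members are given below. *Rpl11* averaged 5.24 ± 0.054 on Stomatitis arrays and 5.25 ± 0.074 on Control arrays (SD, n = 5 each). *Mdm2* itself had a log2 fold change of -0.059 (limma adjusted p = 0.809).

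*Rpl10*, one of the last proteins to join the large subunit, had 5.86, 5.82, 5.86, 5.73 and 5.83 on Stomatitis arrays, against 5.91, 5.86, 5.85, 5.82 and 5.88 on Control arrays. Stomatitis array 4 was the low one, and the log2 fold change was -0.042 (95% interval -0.13 to 0.048). *Rpl3*, which reaches toward the centre where peptide bonds form, had 5.25, 5.25, 5.26, 5.14 and 5.25 on Stomatitis arrays, against 5.31, 5.31, 5.22, 5.25 and 5.35 on Control arrays. Here too Stomatitis array 4 stood below the rest, and the log2 fold change was -0.058 (95% interval -0.15 to 0.036). *Rpl13a*, known in human myeloid cells as a translational silencer once it is released from the ribosome, averaged 5.88 ± 0.054 on Stomatitis arrays and 5.93 ± 0.11 on Control arrays (SD, n = 5 each). *Rpl7* averaged 4.99 ± 0.057 on Stomatitis arrays and 5.04 ± 0.082 on Control arrays (SD, n = 5 each). *Rpl9* and *Rpl36a*, both with estimates just above 0 (0.0087 and 0.0069), had 95% intervals from -0.082 to 0.099 and from -0.15 to 0.16.

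The next lowest p-value after that of *Rps3a* was that of *Rpl14*, a protein of the 60S subunit. It had 5.51, 5.49, 5.59, 5.39 and 5.41 on Stomatitis arrays, against 5.70, 5.57, 5.50, 5.49 and 5.69 on Control arrays. Control arrays 1 and 5 were high and the groups overlapped, and the log2 fold change was -0.11 (limma adjusted p = 0.630). *Rpl15*, which was read by 10 spots per array, had -1.43, -1.41, -1.39, -1.37 and -1.34 on Stomatitis arrays, against -1.38, -1.48, -1.40, -1.29 and -1.41 on Control arrays. Its values were close in both groups, with a log2 fold change of 0.0047 (95% interval -0.092 to 0.10).

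*Rpl19* and *Rpl17* had the lowest estimates among the core members. *Rpl19*, a protein of the large subunit that also forms a bridge to the small one, lay between 5.91 and 6.07 on the 5 Stomatitis arrays, against 6.41, 6.09, 6.03, 5.91 and 6.18 on Control arrays. Control array 1 was the highest by far. The estimate was -0.12 (SE 0.085, limma adjusted p = 0.702), and without Control array 1 it was -0.050. *Rpl17*, which lines the tunnel through which the new peptide leaves, had 3.49, 3.54, 3.65, 3.76 and 3.87 on Stomatitis arrays, against 3.92, 3.81, 3.82, 3.80 and 3.56 on Control arrays. The low values were those of Stomatitis arrays 1, 2 and 3 and Control array 5, all on slide 1, and the estimate was -0.12 (SE 0.087, limma adjusted p = 0.711), -0.22 within slide 1 and 0.0095 within slide 2.

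*Rps27l* had the lowest estimate of all members. It encodes a paralog of *Rps27* that is known in human cells as a target of p53. Its log2 signals were 0.36, 1.59, 1.44, 0.61 and 1.79 on Stomatitis arrays, against 1.62, 1.43, 1.53, 1.60 and 1.49 on Control arrays. The low values were those of Stomatitis arrays 1 and 4, while Stomatitis arrays 2, 3 and 5 lay within or above the Control range of 1.43 to 1.62. The estimate was -0.38 (SE 0.26, limma adjusted p = 0.697), -0.39 within slide 1 and -0.40 within slide 2 and each slide held 1 of the low arrays. Without Stomatitis array 1 it was -0.18 and without Stomatitis array 4 it was -0.24. *Rps27l* had 1 probe, so a second reading of these low values was not available here. *Rps27* itself averaged 5.00 ± 0.070 on Stomatitis arrays and 5.05 ± 0.052 on Control arrays (SD, n = 5 each), with a log2 fold change of -0.052 (95% interval -0.16 to 0.052).

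*Rpl30* had the highest estimate, and it rested on 1 array and 1 probe. The protein binds a kink in ribosomal RNA and, in yeast, in its own transcript. Its brighter probe read 4.36, 4.40, 4.39, 4.45 and 4.66 on Stomatitis arrays, against 4.50, 4.38, 4.37, 3.68 and 4.50 on Control arrays. Control array 4 stood alone below the other 9. The estimate was 0.16 (SE 0.15, limma adjusted p = 0.774), and without Control array 4 it was 0.012. A second probe of *Rpl30* read 4.21, 4.26, 4.25, 4.27 and 4.42 on Stomatitis arrays, against 4.38, 4.26, 4.28, 4.33 and 4.38 on Control arrays. Control array 4 was not low on the second probe, whose log2 fold change was -0.044.

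*Rpl13*, a structural protein of the large subunit, was spread widely in both groups. It had 4.98, 5.50, 5.08, 4.54 and 4.63 on Stomatitis arrays, against 4.52, 4.38, 4.40, 5.32 and 5.60 on Control arrays. The 3 highest arrays, Stomatitis array 2 and Control arrays 4 and 5, came from both groups and both slides. The log2 fold change was 0.10 (SE 0.28, 95% interval -0.52 to 0.72), and it was 0.46 within slide 1 and -0.74 within slide 2. *Rpl13* was read by 1 spot per array.

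**Figure D4:**
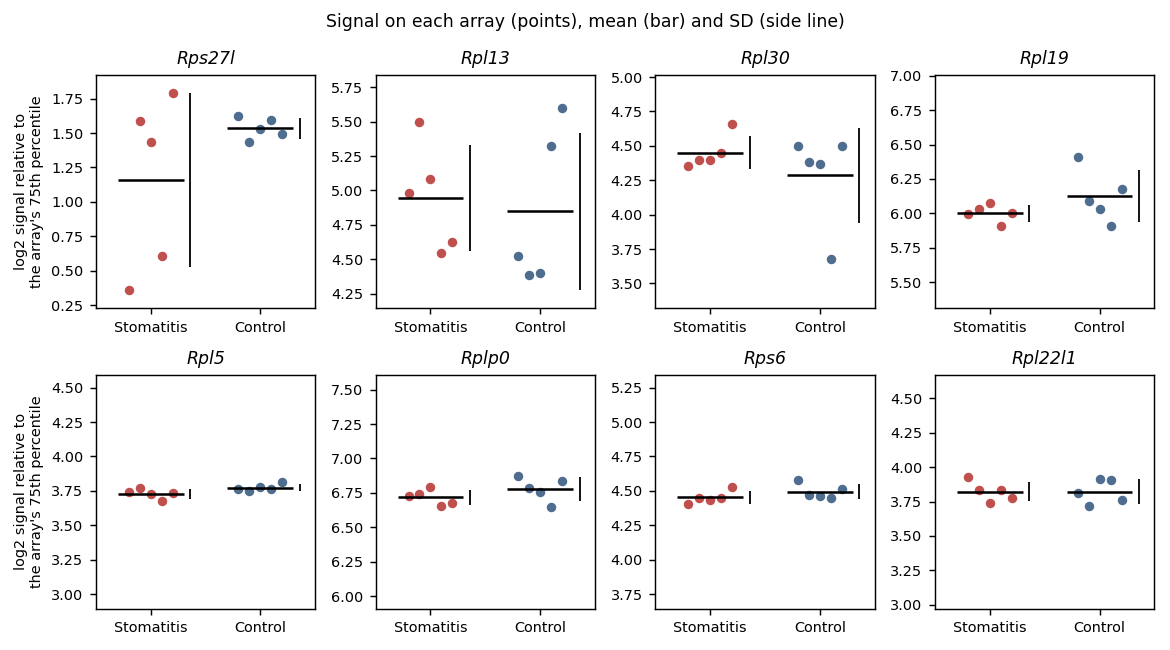
Log2 signal relative to the 75th percentile of the array (vertical axis, each panel spanning the same range of log2 units) for 8 members on the 5 Stomatitis arrays (left, red) and the 5 Control arrays (right, blue), with the mean as a bar and the SD as a side line. *Rps27l* is low on Stomatitis arrays 1 and 4 (0.36 and 0.61), and *Rpl30* on Control array 4 (3.68). *Rpl13* is spread widely in both groups, and *Rpl5*, *Rplp0*, *Rps6* and *Rpl22l1* are spread less widely than *Rpl13*.

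The remaining paralogs were compared with their core partners. *Rpl22l1*, whose product can take the place of that of *Rpl22* in mouse ribosomes, averaged 3.82 ± 0.071 on Stomatitis arrays and 3.82 ± 0.088 on Control arrays, and *Rpl22* averaged 4.22 ± 0.062 on Stomatitis arrays and 4.25 ± 0.074 on Control arrays (SD, n = 5 each). *Rpl39*, a small protein of the exit tunnel, averaged 4.09 ± 0.13 on Stomatitis arrays and 4.11 ± 0.068 on Control arrays (SD, n = 5 each). *Rpl39l1*, a paralog of *Rpl39* by its symbol, averaged -5.40 ± 0.64 on Stomatitis arrays and -5.23 ± 0.33 on Control arrays (SD, n = 5 each), with a 95% interval of the log2 fold change from -0.81 to 0.47. *Rpl3l*, the form of *Rpl3* used in heart and skeletal muscle, averaged -6.46 ± 0.30 on Stomatitis arrays and -6.43 ± 0.57 on Control arrays (SD, n = 5 each) and was well above background on 9 of 10 arrays. The skeletal muscle markers, of which 5 of the 8 listed passed the filter, had mean levels from -4.94 to -4.16 on Stomatitis arrays and from -4.95 to -3.93 on Control arrays, and the part of muscle RNA in the *Rpl3l* signal was not tested. *Rps12l4*, a copy of *Rps12* by its symbol, was also above background on 9 of 10 arrays, at -6.85, -6.30, -6.94, -6.21 and -6.59 on Stomatitis arrays, against -6.97, -6.47, -5.74, -6.07 and -6.12 on Control arrays. Its log2 fold change of -0.30 (SE 0.23, limma adjusted p = 0.722) was the second lowest of the members, and the groups overlapped.

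Other probes of the same genes allowed a second reading. Of the 81 members, 47 had more than 1 tested probe, and in 11 of these the log2 fold changes of the probes differed in sign. The widest gaps were those of *Rpl28*, *Rps16* and *Rpl30*. The 3 probes of *Rpl28* gave log2 fold changes from -0.36 to -0.015, where the brightest probe gave -0.043 and averaged 4.45 ± 0.025 on Stomatitis arrays and 4.49 ± 0.089 on Control arrays (SD, n = 5 each). The -0.36 came from a dim probe that read -3.39 on Control array 4 and between -5.28 and -4.83 on the other arrays. For *Rps16* the brighter probe, averaging 5.29 ± 0.077 on Stomatitis arrays and 5.35 ± 0.12 on Control arrays (SD, n = 5 each), gave -0.063 and the other 0.16. That second probe read 3.15, 2.50, 2.50, 2.44 and 2.47 on Stomatitis arrays, against 3.20, 2.43, 3.23, 2.51 and 0.89 on Control arrays. Control array 5 was the lowest, and Stomatitis array 1 and Control arrays 1 and 3 were the highest. A dimmer *Rps14* probe lay between 4.16 and 4.30 on Stomatitis arrays, wholly below the 4.31 to 4.45 on Control arrays. Its exact permutation p was 0.00794 (two-sided, unadjusted), and dimmer probes of *Rpl38* and *Rps12* gave 0.0317 and 0.0476. In this order the log2 fold changes were -0.087, -0.080 and -0.12, against -0.047, -0.023 and -0.053 on the brightest probes. The limma adjusted p over the tested probes was 0.626, 0.614 and 0.583. Ribosomal protein genes have many near-identical pseudogene copies, and which copies a probe can bind was not tested, as probe sequences were not used here.

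Members with and without a tract at the annotated start had near medians. The 23 tested members with a TOP tract there had a median log2 fold change of -0.057 (22 below 0), the 42 without one had -0.047 (39 below 0), and the 16 with no window had -0.048 (13 below 0). The lowest member with a tract was *Rpl19*, and the lowest without one was *Rps27l*, shown above with no tract in its window. No member of any of these sets passed an adjusted p of 0.05. Some of the 42 have a tract close to the annotated start but not at it. The sets therefore do not separate genes with a TOP tract from genes without one.

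Other genes of the translation machinery were counted from lists on the same scaling, and 0 genes of any list passed a limma adjusted p of 0.05. Of 4 ribosomal proteins whose genes carry other names, 3 were tested, and *Fau* and *Rack1* had log2 fold changes of -0.046 and -0.025. The 68 mitochondrial ribosomal protein genes, a separate set that builds the ribosome of that organelle, had a median of -0.040 with 52 below 0, and at an unadjusted p under 0.05 the count was 0 higher and 2 lower, against the background of 3.93% of features higher and 4.93% lower. Among 47 tested elongation and initiation factors the median was -0.035, and 2 were higher and 2 lower at that level.

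Ribosome biogenesis genes (87 tested) had a median of -0.033. At an unadjusted p under 0.05, 1 was higher and 4 were lower, against 3.93% and 4.93% of all features. *Surf6*, a nucleolar protein, was the higher one, at 0.15 (limma adjusted p = 0.472), and the nucleolar GTPase *Gnl2* was at -0.14 (limma adjusted p = 0.488). The genes of mTOR and of the control of TOP mRNAs (38 tested) had a median of -0.010, equal to that of all features to 2 digits. At that level 2 were higher and 0 lower, against the same 3.93% and 4.93% of all features. The 2 higher genes were *Sesn2*, a sestrin that restrains mTOR, at 0.19, and *Eef2k*, the kinase that slows elongation, at 0.13 (limma adjusted p = 0.488 and 0.555). *Mtor* itself was at 0.074 and the S6 kinase gene *Rps6kb1* at 0.048. The mean correlation between pairs of genes, 0.41 among the members, was 0.26 among the mitochondrial ribosomal proteins, 0.055 among the factors, 0.095 among the biogenesis genes and 0.046 in the mTOR list.

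**Figure D5:**
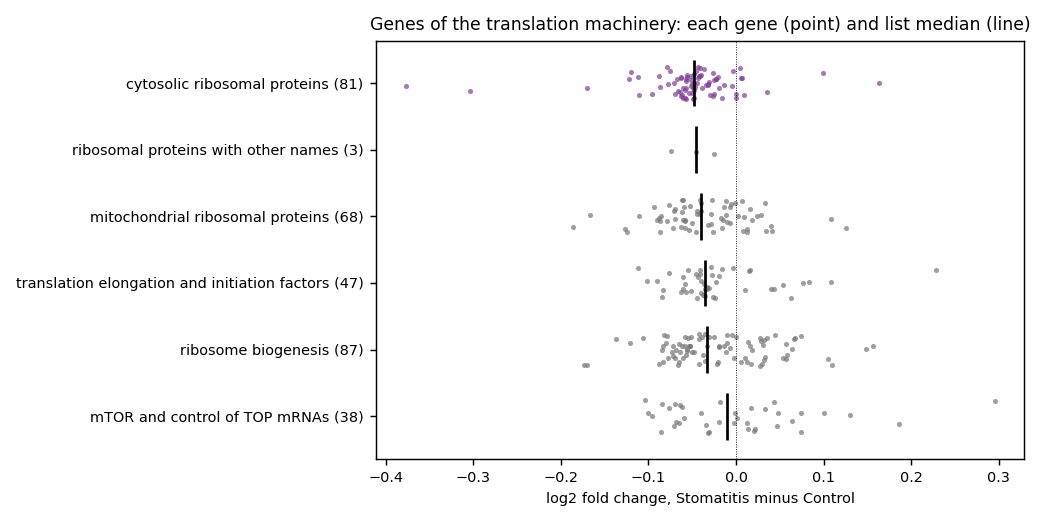
Log2 fold change, Stomatitis minus Control (horizontal axis), of each tested gene (points) and the median (black line) for the cytosolic ribosomal proteins (81, purple) and 5 further lists. The medians run from -0.049 for the cytosolic ribosomal proteins to -0.010 for the mTOR list, and no point passed an adjusted p of 0.05.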

How the data were processed

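TG RNA of 5 Stomatitis and 5 Control rats was labelled with Cy3 and hybridised to 1 array per rat. The authors quantified the arrays with Agilent Feature Extraction 10.7.1.1, and the deposited processed signal is a spot intensity that had been background-subtracted and detrended. Their value table, made with GeneSpring, holds this intensity divided by a constant per array, and served as an alternative.

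Control spots and outlier spots were left out, repeated spots of 1 probe were averaged, and the 75th percentile of an array's spots was subtracted on the log2 scale. Accessions were matched to symbols with the RefSeq table of GRCr8 (18438 of 30367 probes with 1 symbol). The array design follows an older genome build, so coordinates are given for the printed RefSeq windows only. Each gene was represented by its brightest probe on average. Features were tested (19265) if every array of 1 group, or of both, had them well above background.

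Groups were compared with limma 3.58.1 (lmFit, eBayes; R 4.3.3, statmod 1.5.0). Tests were two-sided, and p-values were adjusted by Benjamini-Hochberg across the tested features. Single genes were compared by the exact permutation test. The fit was tested on simulated data. No pairing was used: same-numbered arrays correlated between -0.093 and 0.33 once group means were removed. No 2 arrays held identical values.

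Named members were the 5 highest and 5 lowest estimates, a set by role, paralogs with their partners, and the 3 widest probe gaps. *Rps3a*, *Rpl14*, *Rpl15*, the members with low correlation and the list genes with values were named after their values were seen. So were the dimmer probes of *Rps14*, *Rpl38* and *Rps12*. Some genes are not reported here by name. Members and lists were chosen with earlier results of these data known. Alternatives were other scalings, filters and probe rules, slide and replicate blocks, single slides, other tests, and arrays left out. The normexp correction (offset 50) used the median spot signal.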

Additional observations from a re-analysis of the deposited data

Results flagged for a closer look

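In 4 of the 60 groups formed by the 30 named members, 1 array stood apart from the other 4 of its group by Dixon's criterion, where chance flags about 1 in 20 groups, or 3 here. *Rpl3* read 5.14 on Stomatitis array 4, and its nearest neighbour in the group was 5.25. *Rpl10* read 5.73 on the same array, and its nearest neighbour was 5.82. *Rpl30* read 3.68 on Control array 4, and its nearest neighbour was 4.37. *Rpsa* read 3.47 on Control array 2, and its nearest neighbour was 3.68. Over all 81 members, 5 of 162 groups were set apart in this way.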

How the results depend on the processing

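The count of members past a limma adjusted p of 0.05 was 0 under each of the 27 alternatives. Features past it numbered 2 in the reported comparison, 0 under median centring, quantile normalization, no filter on dim probes, the mean of a gene's probes, the methods' t-test, the authors' value table and without the 3 arrays richest in pituitary genes, 1 with a trend and robust prior and with array weights, 127 within slide 2, which has 1 Control array assumed to vary like the others, and 0 to 1 with an array left out. With the replicate number as a block the count was 0 and the members' median -0.049; the numbers pair no arrays. Members higher at an unadjusted p under 0.05 numbered 1 under normexp and 1 within slide 2. Members lower at that level numbered 1 within slide 1 and 1 within slide 2, and 0 to 3 with an array left out (3 without Control array 4, 2 without Stomatitis array 3, 1 without Control array 1). Members above 0, 7 as reported, were 14 under median centring, 29 under quantile normalization, 29 under normexp, 11 in the authors' table, 15 of 141 probes tested separately, 46 within slide 2, 29 without the pituitary-rich arrays, and 3 to 14 with an array left out (3 without Control array 2, 11 without Control array 4, 14 without Control array 1 or Stomatitis array 1). The members' median lay between -0.065 and 0.0053. Over all features, 54.3% lay below 0 as reported, 46.2% under median centring, 48.8% under quantile normalization and normexp, and 44.6% within slide 2.

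The log2 fold changes of some named members changed sign, and the cause was not tested. Under median centring they were 0.019 for *Rplp1*, 0.015 for *Rpl11* and 0.019 for *Rpl22l1*, and 0.014, 0.0090 and 0.014 with the values of the authors. Under quantile normalization they were 0.051 for *Rplp1*, 0.0023 for *Rpsa*, 0.037 for *Rpl11*, 0.00099 for *Rpl10*, 0.0052 for *Rpl13a*, 0.0095 for *Rpl22*, 0.020 for *Rpl22l1* and 0.0087 for *Rpl39*. Under normexp they were 0.056 for *Rplp1*, 0.012 for *Rps6*, 0.027 for *Rpl11*, 0.0087 for *Rpl13a*, 0.0020 for *Rpl3*, 0.020 for *Rpl22*, 0.039 for *Rpl22l1*, 0.024 for *Rpl39*, 0.010 for *Rps27*, 0.0047 for *Rpl28* and 0.015 for *Rps16*. With a gene's probes averaged they were -0.027 for *Rpl36a*, -0.014 for *Rpl9* and 0.049 for *Rps16*. Blocking on the slide gave -0.021 for *Rpl36a*, 0.0052 for *Rpl11* and 0.090 for *Rpl3l*, and within slide 1 -0.071 for *Rpl36a*, -0.056 for *Rpl30* and 0.032 for *Rpl22l1*. Within slide 2 they were -0.011 for *Rpl9*, -0.012 for *Rplp2*, -0.74 for *Rpl13*, 0.046 for *Rpl19*, 0.0095 for *Rpl17*, 0.016 for *Rplp0*, 0.083 for *Rplp1*, 0.013 for *Rpsa*, 0.028 for *Rps3*, 0.040 for *Rps6*, 0.085 for *Rpl11*, 0.091 for *Rpl13a*, 0.0050 for *Rps4x*, 0.41 for *Rpl3l*, 0.0039 for *Rpl22*, 0.088 for *Rpl39*, 0.017 for *Rps27*, 0.039 for *Rpl28* and 0.033 for *Rps16*. Without the pituitary-rich arrays they were -0.18 for *Rpl13*, 0.071 for *Rpl39l1*, 0.0096 for *Rpl17*, 0.074 for *Rplp1*, 0.062 for *Rpsa*, 0.036 for *Rpl11*, 0.0091 for *Rps27a*, 0.058 for *Rpl3l*, 0.0029 for *Rpl22* and 0.056 for *Rpl39*. With an array left out the range was -0.043 to 0.027 for *Rplp1*, -0.028 to 0.012 for *Rpl11*, -0.20 to 0.18 for *Rpl3l*, -0.036 to 0.050 for *Rpl36a*, -0.011 to 0.023 for *Rpl9*, -0.038 to 0.29 for *Rpl13*, -0.026 to 0.023 for *Rpl22l1*, -0.068 to 0.039 for *Rpsa*, -0.071 to 0.010 for *Rpl39* and -0.41 to 0.0073 for *Rpl39l1*. Of the named members, *Rps27l*, *Rps12l4*, *Rpl5* and *Rpl7* stayed below 0 under every alternative. For *Rps27l* the range was -0.54 to -0.18, and the lowest limma adjusted p was 0.521. No alternative left out both Stomatitis arrays 1 and 4, which held its low values. The alternatives could therefore not show whether its sign rests on those arrays. The number of arrays and, for members that were not above background on every array, the dim signal limit what could be seen.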
